A study of Mus musculus with 81 samples.

Results

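P4 germ cells and P6 somatic cells of the same generation of control fetuses were compared for RNA from endogenous retroviruses and other long terminal repeat (LTR) elements. The comparison used the 4 P4 and the 4 P6 RNA-seq libraries of F3 fetuses that descended from vehicle-treated F0 dams, which are 8 of the 81 labelled libraries of the study. All animals were OG2 mice, which carry an EGFP transgene under the Pou5f1 promoter with its distal enhancer, active in germline cells, and were kept on the C57BL/6J background. The F0 dams received DMSO in drinking water, and their F3 descendants were not exposed themselves. Testes were taken from male F3 fetuses at E18.5 and dissociated, and EGFP-positive germline cells were sorted from EGFP-negative somatic cells. The germline cells were split by side scatter into P4 and P5, of which only P4 is described here. P6 is the gate of EGFP-negative cells of the fetal testis and can hold a mixture of Sertoli, Leydig, peritubular, interstitial, vascular and blood cells. The labels give no litter for the F3 libraries, so that the p-values can measure only the spread between these libraries, which may be technical in part. For family and species totals the fit also pooled that spread over features that share library effects. The wider study asks what F0 exposure to tributyltin leaves in the germline and somatic cells of later generations, and exposed descendants were not analysed here.

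LTR elements are copies of retroviruses and of related elements that entered the germline and became part of the genome. A complete copy has an internal region with the viral genes between a pair of LTRs, while most copies are solitary LTRs that still hold promoter and polyadenylation sequences. In most somatic cells they are held silent by DNA methylation and heterochromatin. Male germ cells of the fetus erase most of their DNA methylation and restore it before birth, and in this period the piRNA pathway, in which small RNAs bound by PIWI proteins direct the destruction and methylation of transposons, becomes active. The elements fall into class I (ERV1, related to gammaretroviruses), class II (ERVK, related to betaretroviruses, which includes the IAP and ETn elements) and class III (ERVL and the MaLR group of MT, ORR1 and MLT1 elements).

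The measurements rest on 970384 annotated LTR loci of 680 species, a species being a RepeatMasker name, and 626329 of these loci (64.5%) lie outside annotated genes. The LTRs with the largest P4 excess show what is being counted. Of the 6 loci outside genes named for the largest P4 excess, the 4 that hold the motif marked below are printed. They are given on the plus strand of GRCm38 as RefSeq gives it, because the deposited table gives no strand. The first pair is whole and the others are the first 300 bases. Capitals mark AATAAA, the canonical polyadenylation signal with which LTRs end the viral transcript, or TTTATT, the same signal read on the minus strand.
RLTR51B_Mm, chr5:77146033-77146316: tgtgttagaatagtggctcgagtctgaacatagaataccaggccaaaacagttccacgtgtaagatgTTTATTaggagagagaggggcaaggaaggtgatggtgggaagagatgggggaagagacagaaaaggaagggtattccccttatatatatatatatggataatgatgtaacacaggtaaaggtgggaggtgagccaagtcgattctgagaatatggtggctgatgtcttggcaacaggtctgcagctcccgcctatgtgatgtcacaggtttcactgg
MTB_Mm, chr9:121551150-121551403: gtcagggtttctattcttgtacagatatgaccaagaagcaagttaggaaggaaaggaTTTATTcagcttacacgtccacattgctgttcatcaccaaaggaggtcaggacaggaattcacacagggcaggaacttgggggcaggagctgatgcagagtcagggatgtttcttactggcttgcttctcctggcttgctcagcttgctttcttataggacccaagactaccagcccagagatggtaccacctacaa
MTC, chr4:153085543-153085842: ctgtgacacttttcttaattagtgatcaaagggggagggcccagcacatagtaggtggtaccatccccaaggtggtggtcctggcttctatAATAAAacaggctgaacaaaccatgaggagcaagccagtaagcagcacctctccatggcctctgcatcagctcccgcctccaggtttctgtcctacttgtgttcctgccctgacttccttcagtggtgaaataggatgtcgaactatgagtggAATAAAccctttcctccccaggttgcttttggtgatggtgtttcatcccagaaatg
RLTR10D2, chr11:31549339-31549638: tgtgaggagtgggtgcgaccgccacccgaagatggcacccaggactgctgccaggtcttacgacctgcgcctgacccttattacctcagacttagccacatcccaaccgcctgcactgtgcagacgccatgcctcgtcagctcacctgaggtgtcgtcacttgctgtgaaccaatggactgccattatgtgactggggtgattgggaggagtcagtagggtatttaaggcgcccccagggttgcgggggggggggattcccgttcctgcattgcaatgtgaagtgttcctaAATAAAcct

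The signal stood in the minus orientation in RLTR51B_Mm and MTB_Mm, with 1 match each, and in the plus orientation in MTC, with 2 matches, and RLTR10D2, with 1 match. Among all LTR loci of 90% to 110% of the same length, 34.9%, 31.4%, 37.7% and 41.4% held the motif in either orientation, in the order of the sequences. The loci of the 6 that are not printed, RMER19B2 on chromosome 10 and RLTR44B on chromosome 9, had no match in the locus, against 62.1% and 56.7% of loci of like length. RMER19B2 had a larger P4 excess than MTC and RLTR10D2. A match is a description of the letters and was not tied to a transcript end.

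The 4 P4 libraries held 2755294 to 5476368 reads at LTR loci and the 4 P6 libraries 4104928 to 5032020. Counts of a pair of P4 libraries differed by 6.0 to 17.9 times the variance of counting alone, and those of a pair of P6 libraries by 2.10 to 2.76 times, so that no library was a copy of another and the P4 group was the more variable. The labels were checked against marker lists. Of 17 germ cell markers, 8 could be tested through reads at LTRs inside their gene bodies, and 7 were higher in P4, where the background was 27.3% of 11789 genes called higher and 25.0% called lower. Of the Sertoli cell list 7 of 7 tested genes and of the peritubular and interstitial list 10 of 10 tested genes were lower in P4. Summed germ cell marker signal in P6 libraries 1 to 4 was 0.254%, 0.176%, 1.25% and 1.99% of the P4 mean, so that libraries 3 and 4 carried more of it than libraries 1 and 2. As in any bulk sample, fewer cells of a type and less RNA per cell cannot be told apart.

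RNA from LTR loci outside genes took a larger part of the reads in germ cells. Reads outside genes made up 4.74%, 5.10%, 2.58% and 3.19% of all LTR reads in P4 libraries 1 to 4, and 1.23%, 1.33%, 1.41% and 1.34% in P6 libraries 1 to 4. Every P4 library lay above every P6 library, and P4 libraries 1 and 2 lay above libraries 3 and 4. The means were 3.90% ± 1.21 and 1.33% ± 0.0768 (SD, n = 4 each), a ratio of 2.94 (two-sided exact permutation test, p = 0.0286, the smallest that 4 against 4 libraries can give, adjusted p = 0.0327 over 8 measures by the Benjamini-Hochberg method). The separation was wider for loci at least 10 kb from any gene, with 1.99% ± 0.637 against 0.313% ± 0.0276, a ratio of 6.35 with the same p-value. Reads at loci that overlap an exon made up 8.05% ± 0.567 and 8.17% ± 0.0467, a difference smaller than the spread of the P4 libraries (exact permutation test, p = 0.657).

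**Figure D1:**
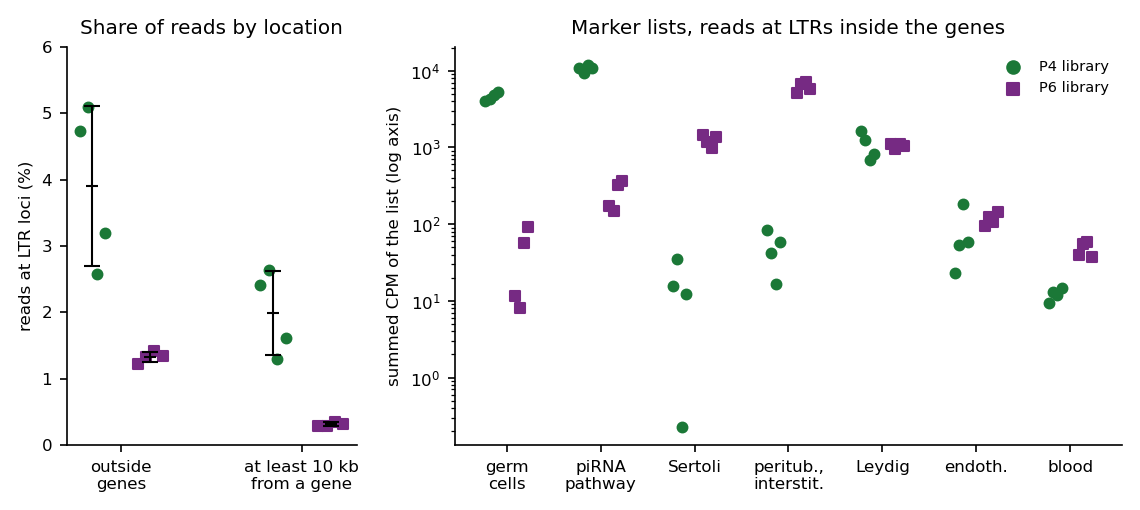
Left: percent of LTR reads outside genes and at least 10 kb from a gene, with points for the 4 P4 (green circles) and 4 P6 (purple squares) libraries and bars for the mean and SD. Right: CPM summed over the genes of each marker list on a log axis. P4 libraries hold 2.58% to 5.10% of their reads outside genes and P6 libraries 1.23% to 1.41%, and germ cell sums lie at 3981 to 5197 CPM in P4 against 8.03 to 90.5 CPM in P6.

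P4 reads were also concentrated at fewer loci. The 100 loci with most reads in each library took 8.81% ± 1.27 of its reads in P4 and 3.31% ± 0.118 in P6 (exact permutation test, p = 0.0286). Brought to 1000000 reads each, the P4 libraries would show 85177, 95325, 81974 and 110516 loci with at least 1 read, and the P6 libraries 115580, 115942, 117159 and 116319. All P4 libraries were thus below all P6 libraries in breadth over all loci (exact permutation test, p = 0.0286). For loci outside genes the order was the opposite, with 10477, 12818, 5097 and 11849 loci in P4 and 3373, 3576, 4372 and 3670 loci in P6. P4 library 3 was the narrowest on both counts and still exceeded every P6 library outside genes.

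Locus by locus, 2615 of 5425 tested loci outside genes were higher in P4 (48.2%) and 422 were lower (7.78%), by limma with Benjamini-Hochberg adjustment over all 108291 tested loci at an FDR of 0.05. Without label number 1, 2 or 4 the higher count was 1587, 1472 or 1485. The background over all tested loci was 25.8% higher and 36.6% lower, which is 27919 and 39675 loci, and 22496 and 51072 with every library set to a common total in place of TMM scaling, or 22573 and 50218 with median-ratio scaling. Without label number 4 the higher count over all tested loci was 18119. The common total moved the median over all loci by -0.69, over genes by -0.57 and over species by -0.42 on the log2 scale. The median P4 minus P6 difference was 2.62 on the log2 scale outside genes and -0.79 for loci in or across genes, of which 24.6% were higher and 38.2% lower. Values here and below are log2 of CPM plus the value of 1 read (0.211 CPM), which understates changes at low levels. The classes were not tested against each other. In class II 1340 of 2588 tested ERVK loci were higher (51.8%) and 170 lower. Class III had 249 of 491 ERVL loci (50.7%) and 763 of 1638 MaLR loci (46.6%) higher, against 21 and 95 lower. Class I had 259 of 699 ERV1 loci higher (37.1%) and 135 lower (19.3%). The summed ERV1 level outside genes was 7084, 6944, 3676 and 4388 CPM in P4 libraries 1 to 4 and 3628, 4077, 3801 and 3785 CPM in P6 libraries 1 to 4, so that P4 library 3 fell among the P6 libraries, while for ERVK the P4 libraries ran from 13457 to 30954 CPM and the P6 libraries from 3875 to 4675 CPM.

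Summed by family, 25 of 30 families of LTR elements were higher in P4 (83.3%) and 2 were lower (6.67%), with a median difference of 2.56 (limma, FDR of 0.05 over the families, SE 0.395 for each). Every family received the same SE because the fit pooled the residual spread over all families. The families share library effects, so their p-values treat them as independent and do not measure a family's own spread. Without the replicate block 26 families were higher and 2 lower, so a call near the threshold can rest on the block. Scaled instead to the reads outside genes, which asks how the families share that signal, 16 were higher and 10 lower, and 7 of the 25 had a negative value, namely ERVB, ETn and MusD, MTA, MYSERV, ORR1A, RLTR11 and RLTR17, and the unnamed rest. All 4 P4 libraries lay above all 4 P6 libraries in 26 families and below them in 2, and RLTR6 and MYSERV overlapped. In 28 families P4 libraries 1 and 2 were both above libraries 3 and 4.

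**Figure D2:**
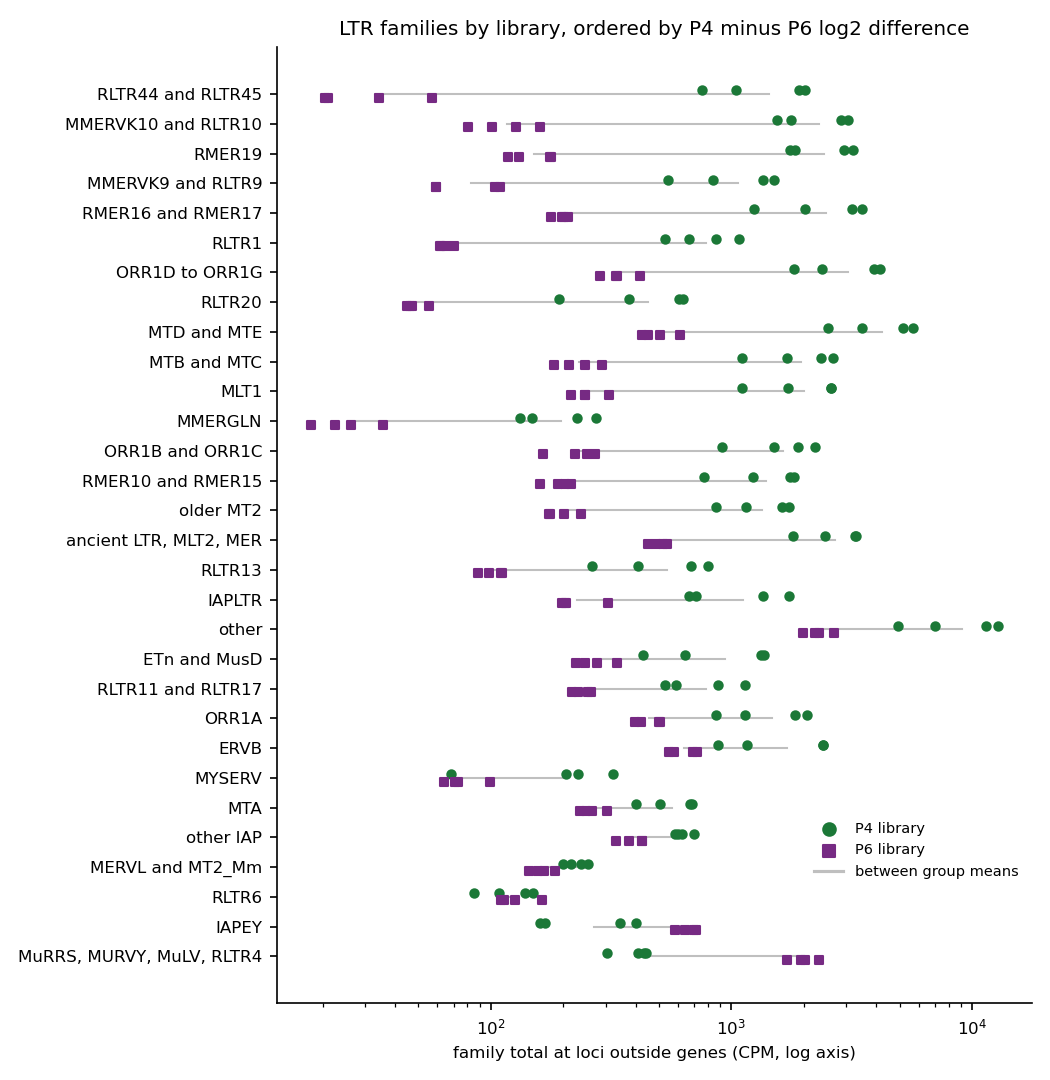
Family totals at loci outside genes in CPM on a log axis, with 1 row per family, green circles for P4 and purple squares for P6 libraries, and grey lines between the group means. In the top row RLTR44 and RLTR45 stand at 757 to 2027 CPM in P4 and 20.5 to 56.8 CPM in P6, and in the bottom row the MuRRS, MURVY, MuLV and RLTR4 family stands at 304 to 444 CPM in P4 and 1698 to 2320 CPM in P6; scaled to reads outside genes, 7 of the 25 higher families change sign.

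The widest separation was that of class II families. RLTR44 and RLTR45 gave 1917, 2027, 757 and 1047 CPM in P4 libraries 1 to 4 and 20.5, 21, 34.2 and 56.8 CPM in P6 libraries 1 to 4. Germ cells were high in every library, with P4 libraries 1 and 2 above 3 and 4 and P6 libraries 3 and 4 above 1 and 2, and the difference was 5.44 (limma, adjusted p = 2.1e-22, 43.4-fold by means). MMERVK10 and RLTR10, an LTR family with its internal regions, gave 3060, 2860, 1771 and 1546 CPM in P4 and 80.7, 101, 160 and 127 CPM in P6. The groups were again apart, by 4.28 (limma, adjusted p = 7.84e-17). RMER19 gave 3209, 2928, 1846 and 1759 CPM in P4 and 131, 117, 176 and 179 CPM in P6, a difference of 3.98. RMER16 and RMER17 stood at 2481 ± 1039 CPM against 196 ± 13.5 CPM and MMERVK9 and RLTR9 at 1062 ± 449 CPM against 82.8 ± 27.6 CPM (SD, n = 4). As shares of the reads outside genes, RLTR44 and RLTR45 held 2.95% ± 0.281 in P4 and 0.295% ± 0.141 in P6, and MMERVK10 and RLTR10 held 4.97% ± 0.901 and 1.05% ± 0.230.

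The named families with the highest mean level in P4 were of class III. MTD and MTE gave 5152, 5691, 2527 and 3495 CPM in P4 and 426, 451, 613 and 504 CPM in P6 (difference 3.02, limma adjusted p = 7.11e-11), and ORR1D to ORR1G gave 3904, 4155, 1815 and 2388 CPM against 284, 330, 416 and 335 CPM (3.10). The subfamilies were not alike in size, although they were not tested against each other. MTA differed by 1.08 and MTB and MTC by 3.01, ORR1A by 1.61 and ORR1B and ORR1C by 2.79, and MTA and ORR1A turned negative, at -0.95 and -0.42, when scaled to the reads outside genes. MERVL and MT2_Mm, whose RNA marks the cleavage-stage embryo, gave 237, 216, 199 and 254 CPM in P4 and 144, 157, 167 and 185 CPM in P6. The libraries did not overlap, but the difference of 0.47 missed the threshold (limma, adjusted p = 0.243) and was negative under every other scaling tried. The miss rests on the SE shared by all families, not on the spread of these libraries.

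2 families were lower in germ cells. The MuRRS, MURVY, MuLV and RLTR4 family of class I, which includes murine leukaemia virus-like copies, gave 434, 444, 411 and 304 CPM in P4 and 2017, 2320, 1698 and 1949 CPM in P6. Every somatic library exceeded every germ cell library, by 5.01-fold in the means (difference -2.33, limma adjusted p = 1.1e-07). It held 18.2% ± 3.26 of the reads outside genes in P6 and 0.915% ± 0.348 in P4. IAPEY, a group of IAP-related class II elements, gave 400, 346, 168 and 160 CPM in P4 and 582, 640, 715 and 698 CPM in P6 (difference -1.41, limma adjusted p = 0.000723). Both differences rest on loci near genes. At loci at least 10 kb from any gene the first was -0.88 and missed the threshold, and IAPEY was higher in P4, by 1.04. The other IAP elements, which are internal regions (IAPEy-int among them) and the LTR IAP1-MM_LTR, at 698, 597, 626 and 585 CPM in P4 and 332, 375, 424 and 423 CPM in P6, did not overlap but missed the threshold (difference 0.69, limma adjusted p = 0.0887) and were negative, at -1.33, when scaled to the reads outside genes. Their miss likewise rests on the SE shared by all families, not on their own spread. The RLTR6 family, LTRs and an internal region of VL30 elements, differed by -0.10 (95% interval -0.88 to 0.67, from the shared family SE) and was not called, although its LTR member RLTR6_Mm was lower in P4, at -3.0. This total leaves out MMVL30-int, another internal region of VL30, whose name places it in the unnamed rest. MMVL30-int gave 257, 197, 93.2 and 151 CPM in P4 and 683, 767, 970 and 790 CPM in P6 (difference -2.28, limma adjusted p = 2.9e-08).

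Of 680 species, 556 had enough reads outside genes to be tested, and 437 of these were higher in P4 (78.6%) and 18 lower (3.24%), with a median of 2.88. The fit drew the variance of each species largely from all species, which share library effects. Species p-values therefore treat species as independent, do not measure a single species' own spread and can be too small. Over all tested species, called or not, every P4 library was above every P6 library in 376 (67.6%) and below in 15 (2.7%), and 371 of the 437 were among the former. Split by the suffix -int, which marks internal regions, 447 species without it, nearly all LTRs, had 373 higher and 8 lower, with a median of 3.09. Of the 109 species with it 64 were higher and 10 lower, with a median of 2.01, and the proportions were not tested against each other. All tested species of RLTR44 and RLTR45 (8), MMERVK10 and RLTR10 (13), MMERVK9 and RLTR9 (14), RLTR1 (8) and RMER19 (4) were higher. Scaled to the reads outside genes, 240 species were higher, all of them among the 437, and 57 were lower, which included all 18. With loci inside genes counted too, 380 species were higher and 97 lower.

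**Figure D3:**
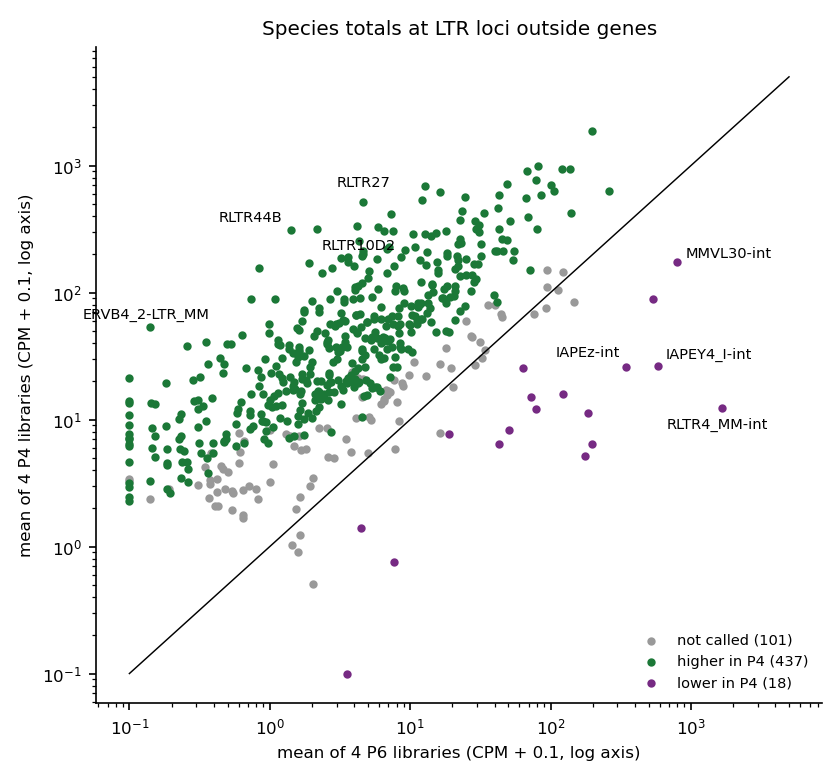
Mean CPM of the 4 P4 libraries against that of the 4 P6 libraries for 556 species totals outside genes, both as CPM + 0.1 on log axes, with the diagonal marking equal levels. 437 species (green) are called higher and 18 (purple) lower in P4, with RLTR44B at 309 CPM in P4 and 1.32 CPM in P6 and RLTR4_MM-int at 12.2 CPM and 1661 CPM.

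The 8 species with the largest P4 excess were all LTRs, 7 of class II and 1 of class I. RLTR44B gave 468, 435, 131 and 205 CPM in P4 libraries 1 to 4 and 0.326, 0, 2.07 and 2.88 CPM in P6 libraries 1 to 4 (difference 8.17 ± 0.628 SE, limma adjusted p = 1.94e-34). P6 libraries 3 and 4, those with more germ cell marker signal, also held more of it, and their part in the P6 level was not tested. RLTR10D2 gave 416, 454, 179 and 220 CPM in P4 and 1.47, 0.547, 3.94 and 2.37 CPM in P6 (difference 7.26). RLTR27 gave 744, 714, 292 and 314 CPM in P4 and 2.28, 2.92, 7.66 and 5.24 CPM in P6 (difference 6.78), spread over 345 loci with reads in P4 of which the first held 5.15%. By contrast 1 locus held 24.8% of the P4 reads of RLTR44B, 35.5% of RLTR10D2, 54.7% of RLTR44A and 74.4% of MER57D. RLTR44E, RLTR44A and MMERVK10D3_LTR differed by 7.57, 6.83 and 6.70. ERVB4_2-LTR_MM gave 83.7, 37.4, 59.7 and 34.3 CPM in P4 and a single read over the 4 P6 libraries, a ratio of 1222 with a lower bound of 219 (95% exact interval, counting error only). MER57D, a class I LTR, had 3 reads in P6 and a ratio of 268 (95% interval 91.2 to 1303).

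Of the 8 species with the largest P6 excess, 6 were internal regions. RLTR4_MM-int gave 12, 17.6, 4.76 and 14.7 CPM in P4 and 1665, 1940, 1383 and 1654 CPM in P6 (difference -7.19 ± 0.449 SE, limma adjusted p = 3.42e-51). IAPEY4_I-int gave 77.9, 22.5, 0.454 and 5.17 CPM in P4 and 503, 566, 631 and 620 CPM in P6 (difference -6.02). In both, all somatic libraries were far above all germ cell libraries. A few loci held these reads, 36.4% of the P6 reads of RLTR4_MM-int and 66.1% of those of IAPEY4_I-int lying at 1 locus each. RNERVK23-int (-5.13) and RLTR30D_RN (-5.09) shared a stretch of chromosome 17 near Vars, chr17:34997140-34998562. All 3929 P6 reads of RNERVK23-int and 65.7% of those of RLTR30D_RN fell there, so these are not independent species. RLTR4_Mm (-4.03) had its leading P6 locus, with 23.0% of its reads, at chr4:133101137-133101355, beside copies of RLTR4_MM-int. IAPEz-int, an IAP internal region, gave 14.9 to 38.6 CPM in the P4 libraries and 301, 331, 370 and 380 CPM in P6 (difference -3.82), over 956 loci with reads in P6. With loci inside genes counted too it was higher in P4, by 0.53. IAPA_MM-int (-3.91) and MLT1F2-int (-3.83, with no P4 read and at least 4.02-fold lower in P4) likewise turned positive over all loci, at 0.36 and 1.65. Of their P6 reads outside genes, 74.7% and 96.25% lay at 1 locus each.

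Members of 1 family could move in opposite directions. These examples were chosen after their values were seen. Among IAP elements, IAP1-MM_I-int gave 246, 258, 231 and 235 CPM in P4 and 13.4, 26.1, 25.7 and 22.8 CPM in P6 (difference 3.50), and IAP-d-int differed by 4.60, while IAPEz-int differed by -3.82. IAPEY5_LTR stood at 6.42 beside IAPEY4_I-int at -6.02. In the leukaemia virus-like family MURVY-int differed by 5.29 and MuRRS4-int by 3.93, while RLTR4_MM-int stood at -7.19 and MuLV-int at -2.95. RLTRETN_Mm, the LTR of ETn elements, gave 943, 941, 246 and 369 CPM in P4 and 14.2, 14.2, 16.4 and 20.5 CPM in P6 (difference 5.03), whereas ETnERV3-int differed by -0.14 and was not called.

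4 internal regions were taken from the study's text because it relates them to Morc1, and they are not a sample of all regions that it names. They were higher in control germ cells outside genes, whereas ERVB4_1B-I_MM-int (-2.71) and IAPEY4_I-int (-6.02), also named there and picked out here after their values were seen, were lower. RLTR1B-int gave 384, 278, 312 and 236 CPM in P4 and 18.3, 15.0, 17.8 and 20.6 CPM in P6 (difference 4.05 ± 0.49 SE, limma adjusted p = 3.26e-15), with 16.9-fold between the means and no overlap. MMERVK10C-int gave 495, 278, 286 and 143 CPM in P4 and 18.7, 32.7, 38.9 and 32.6 CPM in P6 (3.20). MuRRS-int gave 62.3, 37.4, 15.2 and 48.9 CPM in P4 and 3.42, 5.84, 11 and 4.74 CPM in P6 (2.63). MMERGLN-int gave 165, 174, 80.3 and 120 CPM in P4 and 16.1, 20.8, 29.4 and 23.2 CPM in P6 (2.55), but was lower in P4, at -1.49, with loci inside genes included. Scaled to the reads outside genes, MuRRS-int (0.63, limma adjusted p = 0.284) and MMERGLN-int (0.53, limma adjusted p = 0.075) lost their calls.

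Of the 626329 single loci outside genes, 572377 had no read in any of the 8 libraries. 1340 had reads in all 4 P4 libraries and none in any P6 library, 731 had the reverse, and 114 had reads in all 8. The loci named here were chosen among those whose libraries do not overlap. Over all 108291 tested loci, most of them in or across genes, 22.9% did not overlap with P4 above and 34.7% with P4 below. RLTR51B_Mm at chr5:77146033-77146316, 5781 bases from the non-coding gene Chaer1, gave 198, 168, 79.2 and 72.0 CPM in P4 and 0 in all P6 libraries, at least 239-fold higher against a floor of 3 reads per library (limma adjusted p = 0.00014). RMER19B2 at chr10:120319593-120320298 gave 167, 119, 61.0 and 75.4 CPM in P4 and 0 in P6 (at least 195-fold higher). MTC at chr4:153085543-153085860 gave 109, 138, 82.1 and 71.5 CPM in P4 and 2 reads over the P6 libraries. P4 libraries 1 and 2 were the higher pair at each of these loci. RLTR10D2 at chr11:31549339-31549682, 115499 bases from Bod1, gave 160, 165, 54.7 and 74.5 CPM in P4 and 4 reads over the P6 libraries. MTB_Mm at chr9:121551150-121551403 and RLTR44B at chr9:121551409-121551800 are 5 bases apart and can belong to 1 transcript. MTB_Mm gave 197, 197, 83 and 112 CPM in P4 and 2 reads over P6, and RLTR44B 101, 92.0, 38.6 and 64.9 CPM and no P6 read (at least 137-fold higher).

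The 6 loci with the largest P6 excess were internal regions of 369 to 7666 bases. RLTR4_MM-int at chr4:133096444-133099025 gave 1 read over the P4 libraries and 582, 687, 520 and 634 CPM in P6, and the copy at chr4:133099014-133100849, which shares 12 bases with it and is 1 stretch, gave 3 reads and 484, 568, 454 and 527 CPM. Somatic libraries were high throughout and germ cell libraries at or near 0. IAPEY4_I-int at chr7:48124450-48132115, 7009 bases from Gm28665, gave 1 read over the P4 libraries and 341, 390, 406 and 396 CPM in P6. ETnERV3-int at chr7:106267266-106269782 gave 0 in P4 and 66.4, 76.8, 77.1 and 72.1 CPM in P6 (at least 84.4-fold lower in P4). ERVB4_1B-I_MM-int at chrY:59665192-59665901 gave 7.82, 0, 0 and 0 CPM in P4 and 260, 185, 191 and 239 CPM in P6. RNERVK23-int at chr17:34998194-34998562, 2425 bases from Vars, gave 0, 0, 8.39 and 0 CPM in P4 and 172, 202, 139 and 186 CPM in P6. The P4 reads of these last loci came from 1 library each, library 1 on chromosome Y and library 3 on chromosome 17. How reads that match several copies were assigned is not given in the sources used here, so that a single copy's value is less certain than its species total.

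**Figure D4:**
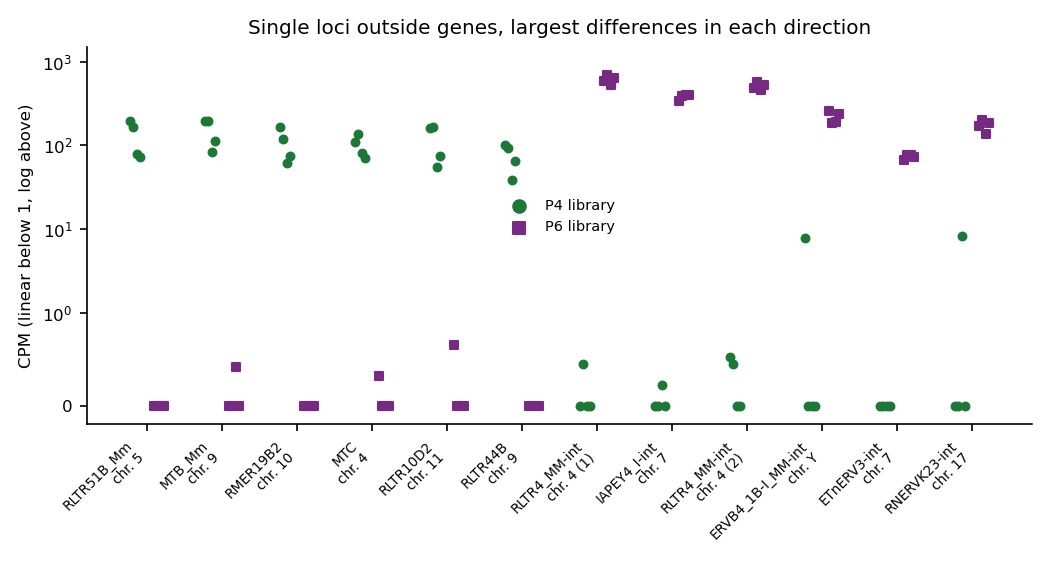
CPM in each P4 (green circles) and P6 (purple squares) library at the 12 loci outside genes with the largest differences, 6 in each direction, on an axis that is linear below 1 CPM and logarithmic above. The left 6 loci stand at 38.6 to 198 CPM in P4 and under 1 CPM in P6, and the right 6 at 66.4 to 687 CPM in P6 and at most 8.39 CPM in P4.

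Reads at LTRs inside genes follow the transcripts of these genes as well as LTR RNA, since the kit does not mark strand and unspliced or LTR-containing transcripts of the host gene are counted. Per gene, 3213 were higher in P4 (27.3%) and 2947 lower (25.0%), with a median of 0.01, and 2726 and 3801 with a common total per library or 2749 and 3796 with median-ratio scaling. Without label number 4 the higher count was 2079. All P4 libraries were above all P6 libraries at 26.2% of genes and below them at 28.0%, and the genes named next were chosen among these. The largest P4 excess was at Cox7b2, a testis form of a cytochrome c oxidase subunit, with 2463, 1742, 826 and 909 CPM in P4 and 0 in all P6 libraries (at least 2743-fold higher). Rec114, needed for meiotic DNA breaks, gave 3158, 3492, 2182 and 1944 CPM in P4 and 0, 0.365, 6.63 and 12.9 CPM in P6 (difference 10.49). Rpl39l, a ribosomal protein gene of male germ cells (10.62), Rab3c, a vesicle GTPase (10.47), Hormad1, of the meiotic chromosome axis (10.28), and Vwc2, a secreted BMP antagonist with no P6 read (at least 556-fold), completed the group together with Mael and Asz1 of the piRNA pathway. The largest P6 excess was at Col4a1. This gene of a basement membrane collagen gave 0 in all P4 libraries and 1592, 1891, 1256 and 1643 CPM in P6 (at least 1844-fold lower in P4). Smoc2, a matricellular protein, differed by -12.53, Adamts2, which processes procollagen, by -12.26, and Egflam, another matrix protein, by -11.44. Fbn1, fibrillin, and Sorcs2, a sorting receptor, had no P4 read (at least 594-fold and 975-fold lower), and Prss35 and Kcnh1 differed by -11.14 and -11.01.

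Of a list of 19 piRNA pathway genes 16 were tested and 15 of these were higher in P4, against 27.3% of all genes, with a median of 5.69. The sum was 9356 to 11825 CPM in P4 and 147 to 363 CPM in P6. Mael, which acts in piRNA biogenesis, gave 5729, 4933, 5382 and 5265 CPM in P4 and 0.326, 0, 48.5 and 35.2 CPM in P6 (difference 10.47 ± 1.47 SE, limma adjusted p = 0.0031). Its P6 reads came mainly from libraries 3 and 4, as did those of the germ cell markers. The PIWI proteins Piwil2 and Piwil4 gave 218, 199, 659 and 653 CPM and 57.1, 101, 437 and 269 CPM in P4, and means of 11.6 and 4.24 CPM in P6. P4 libraries 3 and 4 were the higher pair for both, as for the tudor genes Tdrd1 (31.5, 43.7, 141 and 140 CPM) and Tdrd5 (93.8, 107, 289 and 270 CPM), the reverse of the order in 28 LTR families. Gtsf1, which works with PIWI proteins, ran the other way in P4, with 2200 and 1839 CPM in libraries 1 and 2, 1112 CPM in library 4 and the least in library 3. Tdrd7 had the smallest called difference, 1.25, and lost its call under both other scalings of whole libraries. Tdrd3 gave 46.1, 73.9, 178 and 129 CPM in P4 and 138, 122, 150 and 165 CPM in P6 and was not called.

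Genes that silence retroviruses through DNA methylation and heterochromatin were called about as often as genes in general, with 6 of 22 tested higher (27.3%, the share over all genes), 7 lower (31.8%, against 25.0%) and 9 not called. The median was -0.99, and the sum of the list was higher in every P4 library (3420 to 6286 CPM) than in any P6 library (1182 to 1516 CPM), also without Morc1 (1954 to 2601 CPM against 1182 to 1468 CPM). Morc1, a germline ATPase that silences transposons, gave 1834, 930, 4227 and 2558 CPM in P4 and 3.75, 0, 47.9 and 19.1 CPM in P6 (difference 8.62 ± 0.943 SE, limma adjusted p = 0.00155). Dnmt3l, the cofactor of de novo methylation in germ cells, gave 136, 129, 178 and 126 CPM in P4 and 0.163, 0, 0.414 and 1.35 CPM in P6 (8.06). The methyltransferase Dnmt3b (2.11), the remodeller Hells (1.81), the demethylase Kdm1a (2.21) and Mphosph8 of the HUSH complex (4.83) were also higher. Lower were Uhrf1, which guides maintenance methylation (-3.41), Morc3 (-1.28), the H3K9 methyltransferase Ehmt1 (-2.62), the H3.3 remodeller Atrx (-2.76), the heterochromatin protein gene Cbx1 (-1.89), Fam208a of the HUSH complex (-3.17) and Zfp809, a zinc finger protein that recruits silencing to leukaemia virus sequences (-4.05). Zfp809 gave 5.21, 17.1, 0 and 19.6 CPM in P4 and 75.8, 82.5, 66.1 and 70.7 CPM in P6, with no overlap. The maintenance methyltransferase Dnmt1, the H3K9 methyltransferase Setdb1 and Trim28, the scaffold of zinc finger repression, were not called, at -0.78, -1.19 and -0.11.

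**Figure D5:**
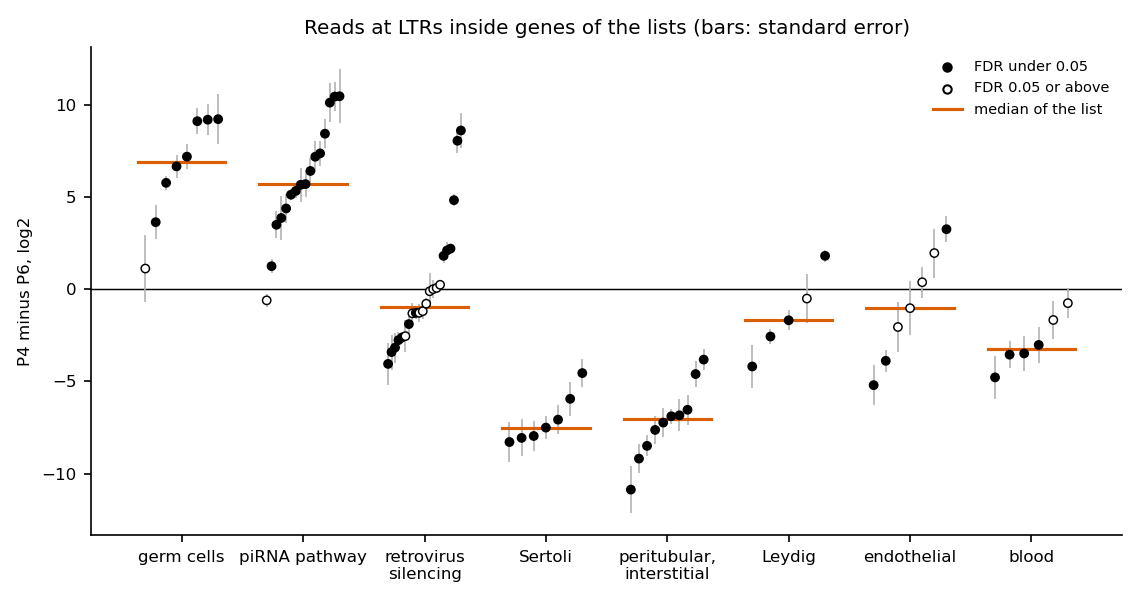
P4 minus P6 log2 difference of each tested gene by list, with standard errors as grey bars, filled points for an FDR under 0.05, open points otherwise, and orange lines at the list medians. The germ cell and piRNA medians lie at 6.93 and 5.69, the retrovirus silencing median at -0.99, and the Sertoli and peritubular medians at -7.51 and -7.06.

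Among germ cell markers, Dazl, an RNA-binding protein of germ cells, gave 555, 563, 500 and 620 CPM in P4 and 0.163, 0, 2.28 and 3.89 CPM in P6, and Ddx4, the germline helicase, gave 563, 895, 1423 and 1552 CPM and 1.47, 1.64, 24.4 and 31.1 CPM. Pou5f1, whose promoter drives the transgene used for sorting, stood at 304 ± 92.7 and 0.672 ± 1.04 CPM (SD, n = 4). Zbtb16 was the tested member not called, with 0, 12.6, 19.1 and 0 CPM in P4. Sertoli cell markers had a median of -7.51 (-7.07 with Dhh, at 0 in P4, at its bound), and Gata4, Wt1, Fshr, Kitl, Aard and Nr5a1 were the other tested genes, all lower. Their sum was 0.227 to 35.2 CPM in P4 and 989 to 1453 CPM in P6. Peritubular and interstitial markers had a median of -7.06 (-6.86 with Pdgfra, at 0 in P4, at its bound), with sums of 16.8 to 84.4 CPM against 5166 to 7058 CPM. Other cell types were less cleanly divided, against the 27.3% of all genes called higher and 25.0% called lower. Of 5 tested Leydig genes 3 were lower (Cyp11a1, Cyp17a1 and Scarb1), but Fdx1, a mitochondrial electron carrier, was higher at 1.82, and the list sums overlapped (695 to 1639 CPM in P4, 951 to 1112 CPM in P6). Of 7 tested endothelial genes Cdh5 and Eng were lower and Flt1 higher, shares of 28.6% and 14.3%, with P4 sums of 22.9, 53.2, 185 and 58.2 CPM and P6 sums of 94.1 to 142 CPM. P4 library 3 was the highest of all 8 for this list, with 78.3 CPM at Emcn and 29.7 CPM at Tek, and the part of endothelial RNA in its values was not tested. Of 6 tested blood and macrophage genes 4 were lower, with a median of -3.25 (-2.34 with Csf1r at its bound) and sums of 9.38 to 14.9 CPM in P4 against 36.7 to 58.6 CPM in P6.

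The same contrast in F1 control fetuses, whose 5 P4 and 5 P6 libraries share none with F3 and descend from dams treated in the same way, gave values for the called features. Of the 2615 loci outside genes higher in F3 germ cells, 746 were tested in F1 and 742 had the same sign, where 67.5% of all 1600 tested loci outside genes were called higher. Of the 437 higher species 416 of 424 tested, and of the 18 lower species all 18, had the same sign in F1, where 82.4% of all 535 tested species were called higher. Among families, of which 73.3% were called higher in F1, 24 of 25 and 2 of 2 did, and ERVB was the exception at -0.24. The difference itself was tested for families. By a limma interaction term 25 of 30 families (83.3%) had a higher P4 minus P6 value in F3 than in F1, among them IAPEY (F3 -1.41, F1 -2.66) and RLTR6 (F3 -0.10, F1 -0.92), which were below 0 in both. This count depends on single label numbers of F3, each a P4 and a P6 library, being 3, 3 and 10 without number 1, 2 or 4, and on the scaling, since with scaling to the reads outside genes it was 4, with 1 below. RLTR1 (F3 3.54, F1 1.76) and the IAPLTR group (F3 2.19, F1 0.15), which also holds the internal regions IAPLTR3-int and IAPLTR4_I, had the largest differences between generations. The share of reads outside genes was 2.27% ± 0.145 in F1 P4 and 1.32% ± 0.195 in F1 P6 (SD, n = 5, exact permutation test, p = 0.00794). The F1 P4 labels, 43-4, 43-5, 44-1, 44-3 and 48-4, share leading numbers whose meaning is not given. This test and the F1 fits took the 5 libraries as independent. F1 P4 libraries ranged from 2.13% to 2.51% and F1 P6 libraries from 1.1% to 1.58%, and the difference from the F3 values was not tested. The F1 and F3 libraries were deposited in separate tables, and generation and table cannot be told apart.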

How the data were processed

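RNA of sorted P4 and P6 cells was made into libraries with an oligo(dT)-primed SMARTer kit and sequenced by the study. Per the labels and the study's methods, reads were trimmed with Trim Galore, aligned to GRCm38 with STAR, counted at RepeatMasker LTR loci with a modified ERVmap and scaled by TMM in edgeR. The authors deposited the result as a signal per locus and library, which is CPM after TMM scaling within each table. The P4 and P6 values come from separate tables, so each library was divided by its lowest positive value to give whole reads (100% of values whole, tolerance 0.02 reads), joined by locus and scaled together by TMM over the 8 libraries.

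Differences were tested as log2(CPM + 1 unit), where 1 unit is 0.211 CPM, with limma 3.58.1 in R 4.3.3 (trended variance, for families without a trend), with the label number as a block, at features with a mean of at least 5 units and a Benjamini-Hochberg FDR of 0.05. Loci outside genes overlap no gene body of GENCODE release M21. Reads at LTRs inside 1 gene only were summed per gene. Single values per library were compared by exact permutation tests. Ratios against 1 to 3 reads carry 95% exact intervals, and folds against 0 are bounds at a floor of 3 reads per library; both cover counting error only. With P4 libraries of 2755294 to 5476368 reads, 1 read is 0.215 to 0.451 CPM.

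Alternatives were edgeR 4.0.16 and DESeq2 1.42.0 on the recovered reads, other scalings, filters and pseudocounts, distance from genes, introns only, no block, and each label number left out. Leaving out numbers 1 and 2 together, and a spread estimated per population, were chosen after seeing the data. Named were all families, the 8 species and 8 genes and the 6 loci outside genes (at most 2 per species) with the largest called, non-overlapping differences in each direction, and tested genes of the lists. Members, lists and tests were chosen with earlier results of these data known. Only the limma fit of single loci was run on simulated data, with loci drawn independently of each other. The species, family, gene and interaction fits and the permutation tests were not simulated. P5 cells, tributyltin groups, methylation data and protein-coding counts were not used here. Python 3.11.15, numpy 2.4.6, pandas 2.3.3, scipy 1.17.1 and matplotlib 3.10.9 were used.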

Additional observations from a re-analysis of the deposited data

Results flagged for a closer look

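In F3 the P4 minus P6 difference exceeded that in F1 in 25 of 30 families by a limma interaction term (FDR of 0.05 over the families). The F3 minus F1 difference on the log2 scale was 2.03 for the IAPLTR group, 1.77 for RLTR1, 1.54 for ERVB, 1.51 for RLTR44 and RLTR45, 1.28 for RMER16 and RMER17, 1.27 for RLTR20, 1.26 for MMERVK9 and RLTR9, 1.24 for IAPEY, 1.13 for RMER19, 1.1 for ETn and MusD, 1.05 for MMERVK10 and RLTR10 and 1.04 for ORR1A. It was 0.98 for MTB and MTC, 0.97 for ORR1D to ORR1G, 0.85 for MTA, for MTD and MTE, for ORR1B and ORR1C and for the unnamed rest, 0.84 for RLTR11 and RLTR17, 0.81 for MLT1 and for RLTR6, 0.76 for the ancient LTRs and for RMER10 and RMER15, and 0.64 for the other IAP elements and for the older MT2 elements. Without label number 1 or 2 of F3, 3 families passed in either case, and without number 3 or 4 it was 28 and 10. Scaled to the reads outside genes, 4 families were above and 1 below, so the listed differences are not separate family results.

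The number of loci detected at 1000000 reads moved in opposite directions in the 2 generations. In F3 all P4 libraries (81974 to 110516 loci) were below all P6 libraries (115580 to 117159), and in F1 all P4 libraries (119386 to 123846) were above all P6 libraries (108522 to 115198). The F3 difference minus the F1 difference was -32301 loci, which was not tested. At 500000 reads the F3 order was the same (difference -21948), but in F1 the P4 libraries (93207 to 97346) overlapped the P6 libraries (89986 to 95022), with a difference of 2681 loci (exact permutation test, p = 0.0714).

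A single library stood apart from the other 3 of its group, by Dixon's criterion, in 3 of 102 groups tested, where chance gives about 1 in 20. P6 library 3 was high for the IAPLTR group, at 306 CPM against 198 to 206 CPM, with a gap of 0.927 of the range. For ERVB4_2-LTR_MM and MER57D the only P6 library above 0 gave a gap of 1 of the range, from 1 and 3 reads.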

How the results depend on the processing

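Of 2307 values of single loci, species, families and genes under the alternatives, 2166 kept their direction and their side of the threshold, 114 kept only the direction, 9 newly passed and 18 reversed. Loci outside genes higher in P4 numbered 1472 to 2749 with each label number left out, 1330 without numbers 1 and 2, 566 at a mean of at least 20 units, 1339 at least 10 kb from genes, and 3945 and 4491 with the quasi-likelihood and the likelihood ratio test of edgeR. Lower ones numbered 133 at a mean of at least 20 units, 929 with no filter and 101 at least 10 kb from genes. Over all loci the higher count was 18119 to 26719 with each number left out and 16671 at a mean of at least 20 units, and the lower count 16658 at that mean and 24905 without numbers 1 and 2. Genes called higher numbered 2079 to 3186 with each number left out and 943 without numbers 1 and 2, and lower ones 520 without these and 1581 with the quasi-likelihood test. Scaled to the reads outside genes, species gave 240 higher and 57 lower and families 16 and 10, with values of -0.72 for ERVB, -0.38 for ETn and MusD, -1.33 for the other IAP elements (IAPEy-int included), -1.55 for MERVL, -0.95 for MTA, -0.78 for MYSERV, -0.42 for ORR1A, -0.14 for the unnamed rest and -0.39 for RLTR11 and RLTR17. MERVL also turned to -0.055 with a common total and -0.025 with median-ratio scaling, and RLTR6 to 0.17 without number 3. Counting all loci, 97 species and 4 families were lower, with reversals for MMERGLN (-1.12), MMERGLN-int (-1.49), IAPA_MM-int (0.36), MLT1F2-int (1.65) and IAPEz-int (0.53). At least 10 kb from genes 0 families were lower by limma and IAPEY stood at 1.04. Families with a higher P4 minus P6 value in F3 than in F1 numbered 3 to 28 with each F3 number left out and 4 with scaling to the reads outside genes, with 1 below. With each number left out the difference in the share of reads outside genes was 2.18 to 3.04 percentage points, in loci detected -28735 to -18941, and in loci detected outside genes 5336 to 8175. With 3 libraries a group no exact permutation test can pass the threshold. Where not stated, the cause of a change was not tested.

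Same-numbered P4 and P6 libraries did not deviate together (correlations of -0.022 to 0.0245 across loci). These correlations cannot decide whether a number marks a shared animal or litter, since other variation between P4 libraries can hide it, and the labels do not say. With no replicate block, 26 families were higher and 2 lower, species 441 and 20, genes 3499 and 3182, all loci 28933 and 40212, and loci outside genes 2607 and 418. No call changed sign, and 66228 calls at loci were shared, 98.0% of those with and 95.8% of those without the block. At these depths, 50.9% to 73.1% of P4 and 62.5% to 70.5% of P6 reads outside genes lay at loci with enough reads to be tested, and a feature under the filter is not shown to be absent.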

Other observations

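By chromosome, the loci outside genes that were tested on chromosome Y went against the genome. Of 35, 6 were higher in P4 (17.1%) and 19 lower (54.3%), while on the X chromosome 62 of 160 were higher and 22 lower, and on chromosome 11, with the highest share, 154 of 273 were higher (56.4%) and 14 lower. Chromosome 7 had the highest share of lower loci among autosomes, with 52 of 310 (16.8%). These counts were not tested against each other.

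The first principal component of the 8 libraries held 73.2% of the variance and separated P4 from P6. The second held 11%, and along it the P4 libraries spread from 288 to -404 while the P6 libraries lay between 7.16 and 11.4. P4 library 3, at the low end, was also the lowest P4 library in 23 of 30 families.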
